A study of Sus scrofa with 180 samples.

Results

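Ribosomal proteins and translation initiation factors were followed in a pair of pig muscles, the Longissimus (LM) of the back and the Semimembranosus (SM) of the ham. The members were the genes whose symbols begin with RPL, RPS (without the RPS6K kinases), MRPL, MRPS or EIF in the study's lists of probes that differed between LM and SM, and all their probes were taken. The rule gave 71 genes with 81 probes, out of 3481 named genes with 3967 named probes in these lists and 10987 probes kept over the array. The cytosolic ribosome had 24 probes of 21 genes, the mitochondrial ribosome 31 probes of 27 genes, and the initiation factors 26 probes of 23 genes. The members were thus chosen by the difference between the muscles, and every difference between LM and SM below is given as a description. Where members called in this contrast are counted, the share of all probes called stands beside, and nothing is read from the count. The lists served only to name probes, and the list of probes higher in SM was held in part, without its smallest fold changes.

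The samples came from 90 crossbred pigs, females and barrows, of an F2 intercross between the sire lines FH016, of Pietrain type, and FH019, a synthetic of Duroc, Large White and Hampshire. Both groups, LM (n = 90 arrays) and SM (n = 90 arrays), came from the same untreated pigs, all wild type at the HAL and RN loci and slaughtered at market weight. The pigs belonged to families of 41 and 49 animals with a common sire, and the labels do not name the family or the sex of a pig. Each sample was a trocar core from the superficial part of the muscle, hybridised alone to a single-colour array of 60-base probes. A core holds every cell type of the muscle, so that fewer cells of a type and less RNA per cell cannot be told apart.

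The cytosolic ribosome is built from a small subunit (RPS proteins) and a large subunit (RPL proteins) and translates the messages of the nucleus. Initiation factors bring it to the message: eIF2 carries the first tRNA, eIF3 holds the small subunit, and the eIF4 group binds the cap and unwinds the leader. The mitochondrial ribosome (MRPS and MRPL proteins, made in the cytosol and imported) translates the few proteins encoded by mitochondrial DNA, all of them subunits of the respiratory chain and the ATP synthase, and is therefore of interest in muscles that differ in oxidative metabolism.

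LM and SM arrays never shared a slide or a scan day, with 21 slides on 10 days for LM and 14 slides on 5 days for SM, so that muscle, slide and day cannot be told apart. The median processed signal of an array ran from 171 to 304 in LM and from 105 to 252 in SM, and 69.2% to 99.9% of probes in LM and 63.4% to 83.3% in SM were well above background. An index of base composition, the mean level of probes with many C among their first 15 bases minus that of probes with few, was -0.37 ± 0.34 in LM and 0.38 ± 0.31 in SM (mean ± SD of log2 values, n = 90 each), and its part in the differences was not tested. Of the marker lists, skeletal muscle had 11 of 15 probes higher in LM and 4 higher in SM. All probes named for adipocytes (3), endothelium (2), fibroblasts (3), red blood cells (3) and smooth muscle (6) were higher in SM, and macrophage markers had 1 probe higher in LM and 2 higher in SM. Ribosomal proteins and initiation factors are made in all nucleated cells, and the part of cell composition in their levels was not tested.

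The pig numbers in the labels were checked before any pairing of the muscles. A group of 4 probes whose arrays fell at a high and a low level, 1.36 to 4.37 apart in LM and 0.85 to 2.58 in SM on the log2 scale, was at the same level in LM and SM of only 43 of 90 labelled pigs, whereas another such probe was at the same level in 83 of 90. The arrays of a labelled pig correlated at a median r of 0.08 over 3575 probes, against -0.01 with arrays of other pigs, and the LM array correlated best with the SM array of its own pig in 4 of 90 pigs. Across all probes, 143 of 10987 (1.3%) correlated between LM and SM of the labelled pig at an adjusted p of 0.05 or less, and 2 of the 81 members did, MRPL37 and EIF2B1. The labels thus held for sets of pigs, described with these 2 genes further on, but not clearly for single pigs, and no result below rests on pairing single pigs.

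Levels are log2 processed signals minus the median of the array, called centred log2 signals, and each probe is compared only with itself. The direction of the members came with the lists that named them. In each class the probes higher in LM and in SM were as many as those from the list of that muscle. The SM list was held without its smallest fold changes, so the counts and medians of the classes describe the lists. Among initiation factors, 24 of 26 probes had the higher mean in LM, whereas among mitochondrial ribosomal proteins 21 of 31 had the higher mean in SM, and the cytosolic ribosomal proteins were divided, with 13 higher in LM and 11 in SM. The median difference, LM minus SM on the log2 scale, was 0.43 for initiation factors, -0.38 for mitochondrial and 0.15 for cytosolic ribosomal proteins. Over all probes kept, which were not chosen by this contrast, it was -0.07. The cytosolic value depended on the background correction and was -0.22 when normexp, a model-based background correction, was used. At an adjusted p of 0.05 or less in limma, 23 initiation factor probes were called higher in LM and 2 in SM, 10 and 21 mitochondrial probes, and 12 and 11 cytosolic probes, where 35.7% of all probes kept were called higher in LM and 47.7% in SM. With normexp the counts were 16 and 4 for initiation factors, 7 and 21 for mitochondrial and 9 and 13 for cytosolic ribosomal proteins. Of all probes kept, 81.9% were called with normexp, both directions together. The size of single values also moved with the processing. Among the 81 members 18 kept their sign but moved by over 1.5 times with normexp and 18 with the base composition index as a covariate, against 0 to 8 under each of the other settings run, and the larger moves are given below in parentheses.

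**Figure D1:**
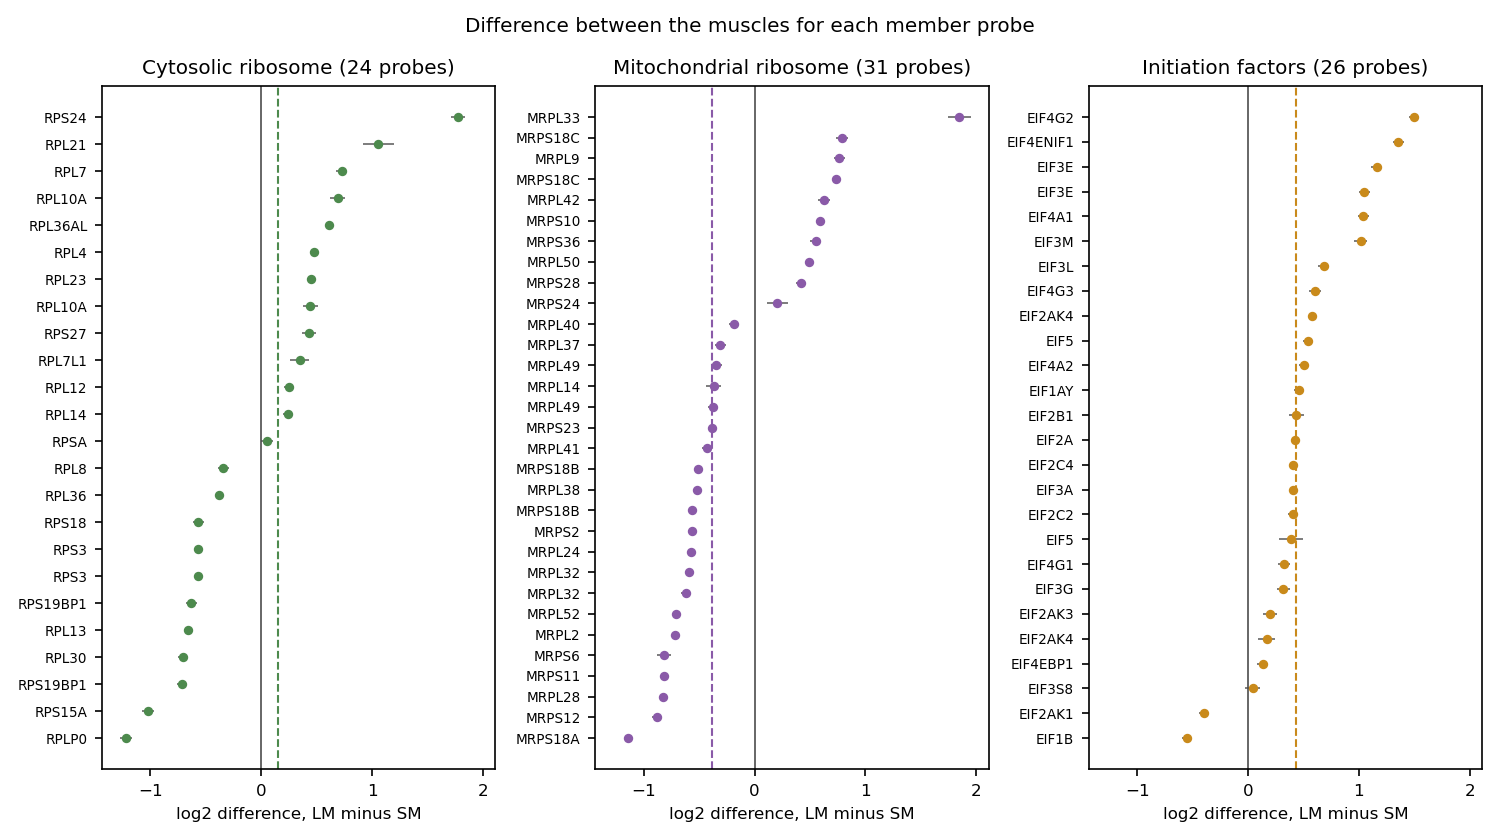
Difference between LM and SM for each of the 81 member probes, in centred log2 signal (positive is higher in LM), by class. Points are the difference of the means of 90 arrays a muscle or as many as had a value, bars are 1 standard error, and the dashed line is the median of the class, at 0.15, -0.38 and 0.43.

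The same contrast was also described by scan day. For 14 of 26 initiation factor probes, the means of all 10 LM scan days lay above those of all 5 SM scan days, and 1 lay wholly below. For mitochondrial ribosomal proteins 9 of 31 probes lay wholly above and 17 wholly below, and for cytosolic ones 6 of 24 above and 10 below. Over all probes kept, 18.3% lay wholly above and 23.4% wholly below.

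Among proteins of the cytosolic small subunit, RPS24, which the pre-ribosome needs to process its 18S rRNA, differed most. Its centred log2 signal ran from -2.28 over a median of -1.27 to -0.43 in LM, and from -3.88 over -3.14 to -1.91 in the 58 SM arrays with a value. The muscles barely overlapped, since 89 of 90 LM arrays were above the highest SM array. The difference was 1.78 ± 0.06 (SE), or 3.42-fold (0.98 on the log2 scale with normexp), and the SM arrays without a value were too dim or failed a spot criterion. RPS15A, a protein of the same subunit, was on the other side, from 0.29 over 1.15 to 1.95 in LM (n = 85) and from 0.95 over 2.18 to 3.06 in SM (n = 90), with 71 SM arrays above every LM array and a difference of -1.02 ± 0.05 (-0.59 with the index).

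RPS3, which lies at the entry of the message channel and also acts in DNA repair, was lower in LM by the same amount with both its probes, -0.57 ± 0.03 each. With probe AJ647954.1_465, LM ran from 3.90 to 5.06 and SM from 4.80 to 5.48, and 55 SM arrays were above the highest LM array. RPS18, at the head of the small subunit, was lower in LM by 0.57 as well, and RPS27, a zinc finger protein of its platform, was higher by 0.43 ± 0.06 (-0.03 with normexp and 0.65 with the index). RPS19BP1, which binds RPS19 and is also known as an activator of SIRT1, was not itself a ribosomal protein but fell under the rule, and its 2 probes were at -0.71 ± 0.05 and -0.63 ± 0.05.

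In the large subunit, RPLP0, the base of the acidic stalk that recruits elongation factors, had the lowest value of the class. LM ran from -0.77 over 0.01 to 1.30 and SM from 0.31 over 1.23 to 2.48, so that all 90 SM arrays were above the LM median and 1 LM array was above the SM median. The difference was -1.22 ± 0.05, a level 2.33-fold higher in SM. RPL30, which takes part in the incorporation of selenocysteine, was at -0.70 ± 0.04, and RPL13 at -0.66 ± 0.04, with all 90 SM arrays of RPL13 above its LM median. RPL36 was at -0.38 ± 0.04 (-0.24 with normexp and 0.01 with the index). RPL8, near the peptidyl transferase centre, was at -0.34 ± 0.05, but at 0.26 ± 0.06 with the base composition index as a covariate, and its probe, with 73.3% G and C, was the richest of the class.

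Other proteins of the large subunit were higher in LM. RPL7 ran from -0.35 over 0.26 to 0.90 in LM and from -1.56 over -0.46 to 0.31 in SM, and all 90 LM arrays were above the SM median. Its difference was 0.73 ± 0.05. RPL7L1, its nucleolar paralogue that acts in the assembly of the subunit, was at 0.35 ± 0.09 on 82 LM and 74 SM arrays (0.11 with normexp and 0.66 with all spots kept). RPL36AL, a paralogue of RPL36A near the site where the tRNA leaves, gave the clearest separation of the group, with 72 LM arrays above the highest SM array. LM ran from 2.78 over 3.11 to 3.58, SM from 1.97 over 2.50 to 2.92, and the difference was 0.61 ± 0.03. RPL4 (0.48 ± 0.04, 0.13 with normexp), RPL23 (0.45 ± 0.04), RPL12 (0.25 ± 0.04, -0.20 with normexp and 0.45 with the index) and RPL14 (0.24 ± 0.04, 0.06 with the index) followed.

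RPL10A, the protein of the L1 stalk, which helps the spent tRNA to leave, had 2 probes that shared a run of 26 bases and, just before it, another of 13. They are shown whole, 5′ to 3′ as the scanner files list them, with both shared runs in capitals, since agreement between these probes is partly agreement of one sequence with itself.
RPL10A BP170500.1_804: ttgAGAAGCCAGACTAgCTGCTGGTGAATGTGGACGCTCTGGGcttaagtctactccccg
RPL10A BX914284.1_400: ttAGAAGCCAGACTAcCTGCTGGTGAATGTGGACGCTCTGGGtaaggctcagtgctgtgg
The first was higher in LM by 0.44 ± 0.07 and the second by 0.69 ± 0.07, and they correlated over arrays at r = 0.96 in LM and 0.98 in SM. Their level varied more between SM arrays, with an SD of 0.51 and 0.53, than between LM arrays, at 0.40 and 0.38, without passing the test of spread given further on.

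RPL21, a large subunit protein, had the second largest difference towards LM in the cytosolic class, 1.06 ± 0.14, but it was not seen on all LM arrays. LM ran from -3.92 over -2.04 to -0.69, and SM from -3.71 over -3.29 to -0.81 in the 54 arrays with a value. The LM arrays spread over more than the whole range of SM, and the division followed their scan days, as described with the slides. With normexp the difference was 0.34.

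The mitochondrial ribosomal proteins held the largest difference of all members. MRPL33, a small protein of the large subunit, ran from -0.92 over 0.73 to 2.21 in LM and from -2.60 over -1.32 to 0.30 in SM. All 90 LM arrays were above the SM median and 68 were above every SM array. The difference was 1.85 ± 0.10, a 3.60-fold higher level in LM, and its spread, with an SD of 0.61 in LM and 0.76 in SM, was also the largest of the class in SM.

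The MRPS18 paralogues went different ways. MRPS18A, MRPS18B and MRPS18C descend from one bacterial S18 protein; MRPS18B and MRPS18C have places in the small subunit and MRPS18A in the large one. MRPS18A ran from 3.02 over 3.40 to 3.90 in LM and from 3.57 over 4.59 to 5.28 in SM, 86 SM arrays were above every LM array, and the difference was -1.14 ± 0.04, or 2.20-fold. MRPS18B was lower in LM with both probes, at -0.51 ± 0.03 and -0.56 ± 0.03. MRPS18C was higher in LM with both probes, at 0.79 ± 0.05 (0.43 with normexp) and 0.74 ± 0.03, and the second had 66 LM arrays above the highest SM array.

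**Figure D2:**
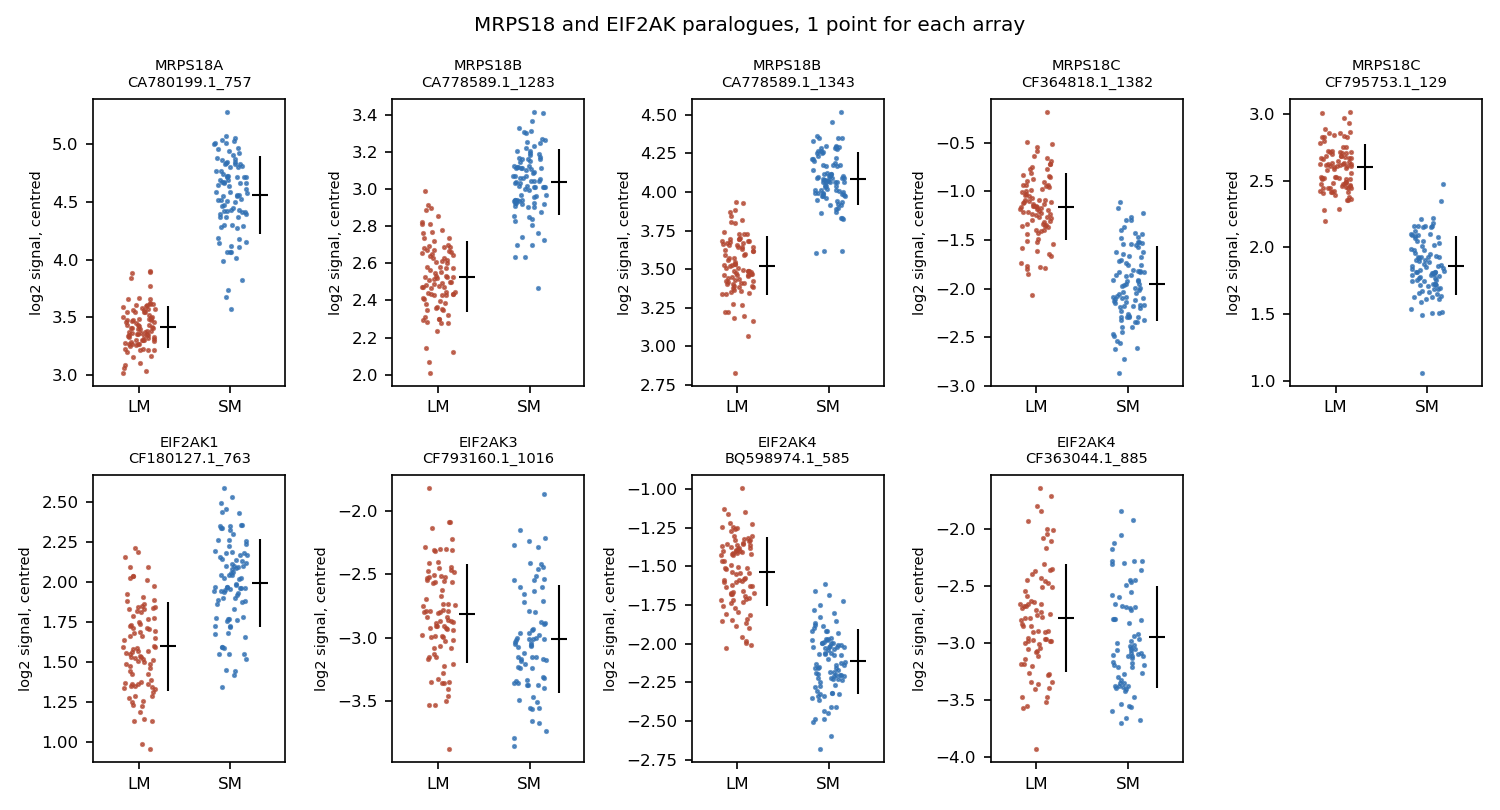
Centred log2 signal of the MRPS18 paralogues (top) and the EIF2AK kinases (bottom) on each LM and SM array, each panel 1 probe with its own axis; crosses are the mean and bars 1 SD. MRPS18A and both MRPS18B probes were higher in SM and both MRPS18C probes in LM, while EIF2AK1 was higher in SM and the EIF2AK4 and EIF2AK3 probes were higher in LM. Of these, EIF2AK3 was higher by 0.20 (-0.10 with normexp) and the EIF2AK4 probe CF363044.1_885 by 0.17 (-0.14 with normexp).

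The probes of these paralogues are shown by their last 30 bases, 5′ to 3′ as in the scanner files, because they differ in how close to the end of the message they lie. Capitals mark the letters AATAAA, the polyadenylation signal, and a final run of 5 or more A. MRPL33, MRPL2 and RPLP0 are added as the members with the largest difference and as examples of both features.
MRPS18A CA780199.1_757: ataaaacaaggctcttaccctcccAAAAAA
MRPS18B CA778589.1_1283: aaatagatgtgctaagcattctgttactgt
MRPS18B CA778589.1_1343: AATAAAgctgtatcctgtctctggAAAAAA
MRPS18C CF364818.1_1382: aacgttcgttAATAAAtcagattatttaca
MRPS18C CF795753.1_129: cttttatcccagtttatttctccttttact
MRPL33 CF178230.1_703: actatgctgcatttgtcaacatctAAAAAA
MRPL2 CF791268.1_1136: ctctAATAAAatggcccctattttAAAAAA
RPLP0 CN154584.1_1110: tccaAATAAAaacaaccgtttcctcAAAAA

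Searched on the listed strand of the whole probe, AATAAA was in 9 of 31 mitochondrial ribosomal protein probes (29.0%), 3 of 24 cytosolic (12.5%) and 2 of 26 initiation factor probes (7.69%), against 10.7% of all probes kept. A final run of A was in 8 of 31 (25.8%), 2 of 24 and none of 26, against 4.94%. Of the 8 mitochondrial probes with the final run, 7 were among the 21 probes higher in SM (MRPL2, MRPL41, MRPS6, MRPS11, MRPS12, MRPS18A and MRPS18B) and 1, MRPL33, was higher in LM. These matches describe the probes, and their part in the differences was not tested.

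Besides MRPS18B, other proteins of the mitochondrial small subunit were lower in LM, and their muscles were separated to different degrees. For MRPS11, of the platform of the small subunit, LM ran from 3.32 over 3.78 to 4.08 and SM from 4.15 over 4.61 to 5.10, so that the muscles did not overlap at all. Its difference was -0.82 ± 0.02, and its SD, 0.14 in LM and 0.17 in SM, was among the smallest. MRPS12, of the decoding centre, was at -0.88 ± 0.05 and MRPS6 at -0.82 ± 0.06, with 53 and 27 SM arrays above every LM array. MRPS2 (-0.56 ± 0.04) and MRPS23 (-0.38 ± 0.04) followed. MRPS10 was higher in LM by 0.59 ± 0.04 (0.38 with the index), with 58 LM arrays above every SM array. MRPS36, later placed in the 2-oxoglutarate dehydrogenase complex rather than the ribosome, was at 0.55 ± 0.05 (0.09 with normexp). MRPS28 was at 0.42 ± 0.04 (0.03 with normexp) and MRPS24 at 0.21 ± 0.10 (-0.03 with normexp and 0.52 with all spots kept).

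In the mitochondrial large subunit, MRPL28 ran from 2.26 over 2.66 to 3.21 in LM and from 2.67 over 3.44 to 4.12 in SM, with 82 SM arrays above every LM array and a difference of -0.83 ± 0.03. MRPL2, at the peptidyl transferase centre, was at -0.72 ± 0.03 with 87 SM arrays above every LM array, and MRPL52 at -0.71 ± 0.04 with 51. MRPL32, a zinc protein whose processing by a mitochondrial protease is a step of ribosome assembly, was lower in LM with both probes, at -0.62 ± 0.05 and -0.59 ± 0.04. MRPL49 also went one way with both, at -0.38 ± 0.04 and -0.35 ± 0.05. MRPL24, MRPL38, MRPL41, MRPL14, MRPL37 and MRPL40 lay between -0.57 and -0.18, and with the index MRPL14 was at -0.18 and MRPL40 at -0.00. Higher in LM were MRPL9 (0.76 ± 0.05, 0.38 with normexp), MRPL42 (0.63 ± 0.05, 0.41 with the index) and MRPL50 (0.49 ± 0.04, 0.21 with the index). Neither subunit of the mitochondrial ribosome was thus on one side alone.

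Among the factors that load the first tRNA, the differences were moderate. EIF2B1, a subunit of the exchange factor that recharges eIF2, was higher in LM by 0.44 ± 0.07 (0.11 with normexp). EIF2A, which can deliver the first tRNA without GTP, was at 0.43 ± 0.04 (0.26 with normexp and 0.19 with the index) and EIF1AY, a scanning factor, at 0.46 ± 0.04 (0.30 with the index). EIF1AY is the symbol of a Y-linked gene, but its probe had a value on all 90 arrays of each muscle, females included. It may thus read a related message, which was not tested. EIF5, which triggers GTP hydrolysis by eIF2, was at 0.54 ± 0.04 with probe BM659075.1_3258 (0.33 with the index). Its other probe, BQ601560.1_763, was at 0.39 ± 0.11 (-0.12 with normexp, 0.18 with the index and 0.82 with all spots kept). EIF1B, a paralogue of the start codon selector EIF1, was the factor with the lowest value: LM ran from 1.33 over 2.14 to 2.87, SM from 2.26 over 2.68 to 3.25, and the difference was -0.55 ± 0.04.

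The kinases that shut initiation down by phosphorylating eIF2 did not go together. EIF2AK1 (HRI), which responds to a lack of haem and relays mitochondrial stress, was lower in LM, with a range from 0.95 over 1.57 to 2.21 in LM and from 1.34 over 2.00 to 2.58 in SM and a difference of -0.40 ± 0.04. EIF2AK4 (GCN2), the sensor of uncharged tRNA, was higher in LM by 0.58 ± 0.03 (0.22 with normexp) with probe BQ598974.1_585, where 57 LM arrays were above every SM array, but by 0.17 ± 0.07 with probe CF363044.1_885, whose muscles overlapped nearly in full. EIF2AK3 (PERK), the kinase of the endoplasmic reticulum, was at 0.20 ± 0.06. The values of the second EIF2AK4 probe and of EIF2AK3 turned to -0.14 and -0.10 with normexp, and to 0.37 and -0.06 with the index.

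Subunits of eIF3, the scaffold between the small subunit and the cap complex, were higher in LM where they differed. EIF3E ran from 4.37 over 4.74 to 5.26 in LM and from 2.51 over 3.62 to 4.66 in SM with probe BQ599036.1_1286, 61 LM arrays were above every SM array, and the difference was 1.16 ± 0.05. Its other probe, AJ650970.1_448, gave 1.05 ± 0.05. EIF3M was at 1.02 ± 0.06, with all 90 LM arrays above the SM median, EIF3L at 0.68 ± 0.05 (0.15 with normexp), EIF3A at 0.41 ± 0.04 and EIF3G at 0.32 ± 0.06 (-0.06 with normexp and 0.64 with the index). EIF3S8, the former symbol of EIF3C, was the exception at 0.04 ± 0.07, on 71 LM and 46 SM arrays.

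In the eIF4 group the helicases and scaffolds were all higher in LM. EIF4A1 and EIF4A2, near-identical helicases that unwind the leader, were at 1.04 ± 0.05 (0.41 with normexp) and 0.50 ± 0.04, and probes of such close paralogues may pick up both messages. EIF4G2 (DAP5), a scaffold that works without the cap-binding protein, was the only member whose LM arrays were all above every SM array. LM ran from 0.77 over 1.52 to 2.31, SM from -1.10 over 0.00 to 0.61, and the difference was 1.49 ± 0.05, or 2.82-fold. The cap-dependent scaffolds EIF4G3 and EIF4G1 were at 0.60 ± 0.06 and 0.33 ± 0.05, and at 0.34 and 0.01 with normexp. EIF4ENIF1 (4E-T), which carries the cap-binding protein to the nucleus and to sites of message storage, was at 1.36 ± 0.05 (0.69 with normexp), with 76 LM arrays above every SM array, and EIF4EBP1, the repressor of cap binding that mTOR phosphorylates, at 0.13 ± 0.05 (-0.05 with normexp and 0.32 with the index). EIF2C2 and EIF2C4, argonaute proteins (AGO2 and AGO4) that carry an old EIF symbol, were both at 0.41.

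Which members lay just inside the threshold of the study's lists was not determined, because the authors' own values were not used. In the fit used here the smallest differences were those of EIF3S8, RPSA and EIF4EBP1. RPSA, a small subunit protein that also serves as a laminin receptor, was at 0.05 ± 0.05 with a mean of -3.15 in LM and -3.20 in SM, and EIF3S8 had means of -3.37 and -3.42; neither was called, and both changed sign under other settings. Members just outside cannot be given, because probes outside the lists carry no name here.

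The spread between arrays of a muscle was not used by the rule and was tested with limma on the absolute deviation from the median of the muscle. Among the 81 members 5 had a wider spread in LM and 8 in SM, where 5.62% and 8.91% of all probes kept did. EIF3E varied far more in SM than in LM with both probes, with an SD of 0.45 against 0.21 (adjusted p = 3.24e-07) and 0.44 against 0.18 (adjusted p = 1.47e-08). MRPL42 had an SD of 0.47 in SM and 0.21 in LM (adjusted p = 2.42e-08), RPL7 0.39 and 0.25 (adjusted p = 4.78e-05), and MRPS18A 0.34 and 0.18 (adjusted p = 7.00e-05). MRPL33, EIF4A2 and EIF5 were the others wider in SM. Wider in LM were RPL21, with an SD of 0.97 against 0.52 (adjusted p = 2.58e-09), EIF1B, RPL8, MRPL52 and EIF4G2. With deviations taken from the median of the slide, 2 members, EIF1B and MRPL52, were wider in LM and 14 in SM, where 0.364% and 11.3% of all probes kept were, and RPL21 was no longer called (adjusted p = 0.355).

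**Figure D3:**
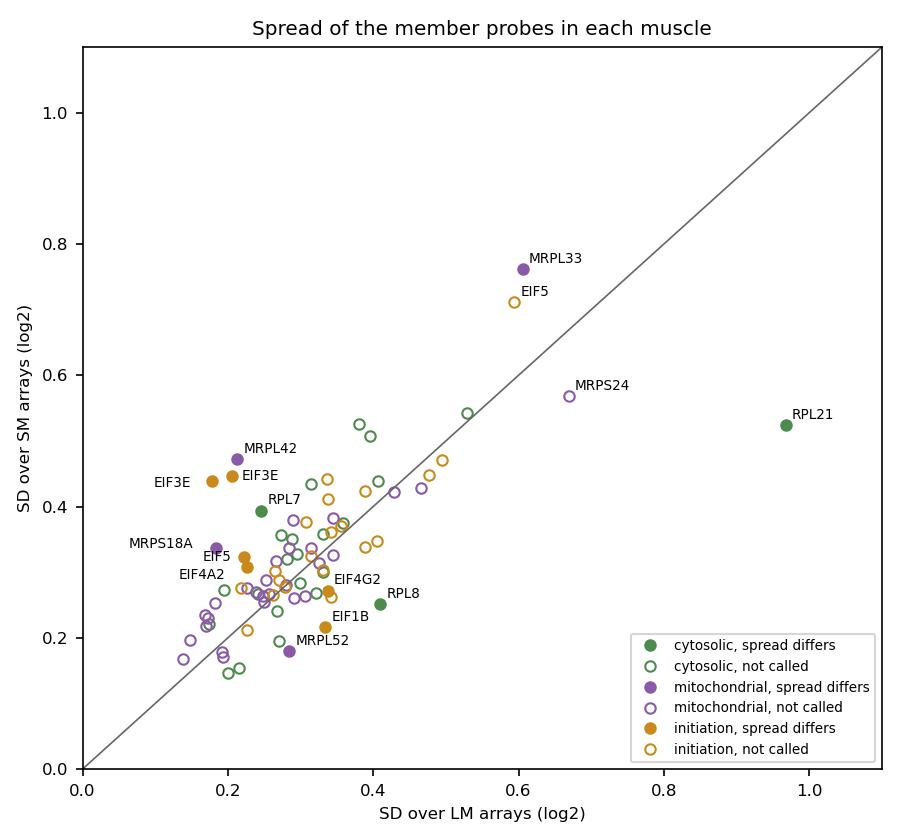
SD of the centred log2 signal over SM arrays against that over LM arrays for each of the 81 member probes, by class. Filled points passed the test of spread at an adjusted p of 0.05 or less; RPL21 lies far below the line of equal spread at 0.97 and 0.52, and both EIF3E probes and MRPL42 lie well above it.

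For the 10 member genes with more than 1 probe the agreement of the probes within a muscle was tested by 100000 permutations of the arrays, adjusted over 559 pairs of probes of the same gene. The pair correlated in 9 of 10 genes in LM and 8 of 10 in SM, where 85.3% and 88.2% of all 559 pairs did, with a median r of 0.74 and 0.80. EIF3E (r = 0.86 in LM and 0.99 in SM), MRPL32 (0.92 and 0.87), MRPS18B (0.90 and 0.92) and RPS19BP1 (0.92 and 0.94) agreed closely, and RPS3 (0.77 and 0.79) and MRPL49 (0.57 and 0.78) less so. MRPS18C reached only 0.43 and 0.39. The EIF2AK4 probes did not correlate detectably, with r = -0.03 over 79 LM arrays (adjusted p = 0.805, permutation test) and 0.12 over 75 SM arrays (adjusted p = 0.322, permutation test), and those of EIF5 did so in LM (r = 0.29) but not in SM (r = 0.10), so the values of these 2 genes hold for a probe and not for the gene.

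The mean deviations of the classes over arrays, given with no test, went together for the cytosolic ribosome and the initiation factors, at r = 0.36 in LM and 0.39 in SM over 90 arrays each. Those of the mitochondrial ribosome followed neither, with r from -0.06 to 0.12 in both muscles. The arrays of a muscle share slides and base composition.

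EIF3E was chosen after its spread was seen, and the correlation of its probe BQ599036.1_1286 with each of the other probes was tested within each muscle by 100000 permutations of the arrays, two-sided and adjusted over 10986 probes. In SM 30 of the other 80 member probes were called, 20 with a positive and 10 with a negative r. Of all probes 40.8% were, 1771 with a positive and 2713 with a negative r. In LM 12 were called, 8 positive and 4 negative, where 10.4% of all probes were, 673 positive and 468 negative. With both signs together, the shares are near those of all probes. In SM positive r prevailed among the members called and negative r among all probes called, which was not tested. With deviations from the slide 36 members were called in SM and 20 in LM, where 47.7% and 18.1% of all probes were. The highest in SM, after the other EIF3E probe, were MRPL42 (r = 0.78, rho = 0.78, r = 0.77 without the 2 arrays farthest in EIF3E), RPL7 (0.76), RPL36AL (0.74), RPL23 (0.64), MRPL50 (0.64), EIF3M (0.63) and EIF4A2 (0.58), and the lowest were MRPL2 (-0.57), MRPL28 (-0.52) and MRPL41 (-0.41), all over 88 or 89 arrays. RPL36AL (rho = 0.76) and MRPL2 (rho = -0.55) kept r = 0.73 and -0.52 without the 2 farthest arrays, and for MRPL42, RPL36AL and MRPL2 the permutations gave an adjusted p of 0.000106, the smallest they could give there.

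In LM, MRPL42 (r = 0.03), RPL7 (0.07), MRPL50 (0.00) and EIF3M (0.16) were not called, whereas RPL36AL (0.66, rho = 0.63, adjusted p = 0.000718 in the permutation test), RPL23 (0.51) and RPS3 (0.49 and 0.58) were. With deviations from the slide RPL7 was called in LM as well (r = 0.32, adjusted p = 0.0269 in the permutation test), and MRPL42, MRPL50 and EIF3M were not. The range of EIF3E was narrower in LM, and the difference between the muscles was not tested. Over all probes the correlation with EIF3E went with the G and C content of the probe in SM, at r = -0.39 across 10986 probes, and in LM at 0.03, or 0.23 with deviations from the slide. The level of EIF3E itself correlated with the base composition index of the array at r = -0.35 in SM and 0.09 in LM. RPL36AL and RPL23, called in both muscles, and MRPL28, negative in SM, are shown whole as examples, with G and C in capitals. Over all probes this property went with the correlation in SM.
RPL36AL BQ604457.1_122: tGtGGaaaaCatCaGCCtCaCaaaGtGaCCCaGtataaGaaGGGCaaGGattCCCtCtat
RPL23 AJ296004.1_784: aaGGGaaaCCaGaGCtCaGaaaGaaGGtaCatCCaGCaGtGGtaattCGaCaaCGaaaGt
MRPL28 BM190671.1_598: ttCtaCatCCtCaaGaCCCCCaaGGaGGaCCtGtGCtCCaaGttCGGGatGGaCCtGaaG
The first 2 hold 45% G and C and the last 55%, and the part of base composition in these correlations was not tested. Over the 80 member probes the correlation with EIF3E in SM went with the G and C content at r = -0.27. By class it was -0.51 for mitochondrial and -0.07 for cytosolic ribosomal proteins and -0.31 for initiation factors. MRPL2, with the lowest r of the members in SM (-0.57), holds 40%, and MRPL41 (-0.41) holds 46.7%. Over the whole array the probes nearest to EIF3E in SM, again after its own second probe, were named ZNF277 (r = 0.92), CIR1 (0.90), CCDC75 (0.89), MNAT1 (0.88) and RSL24D1 (0.88), the last an assembly factor of the large subunit.

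**Figure D4:**
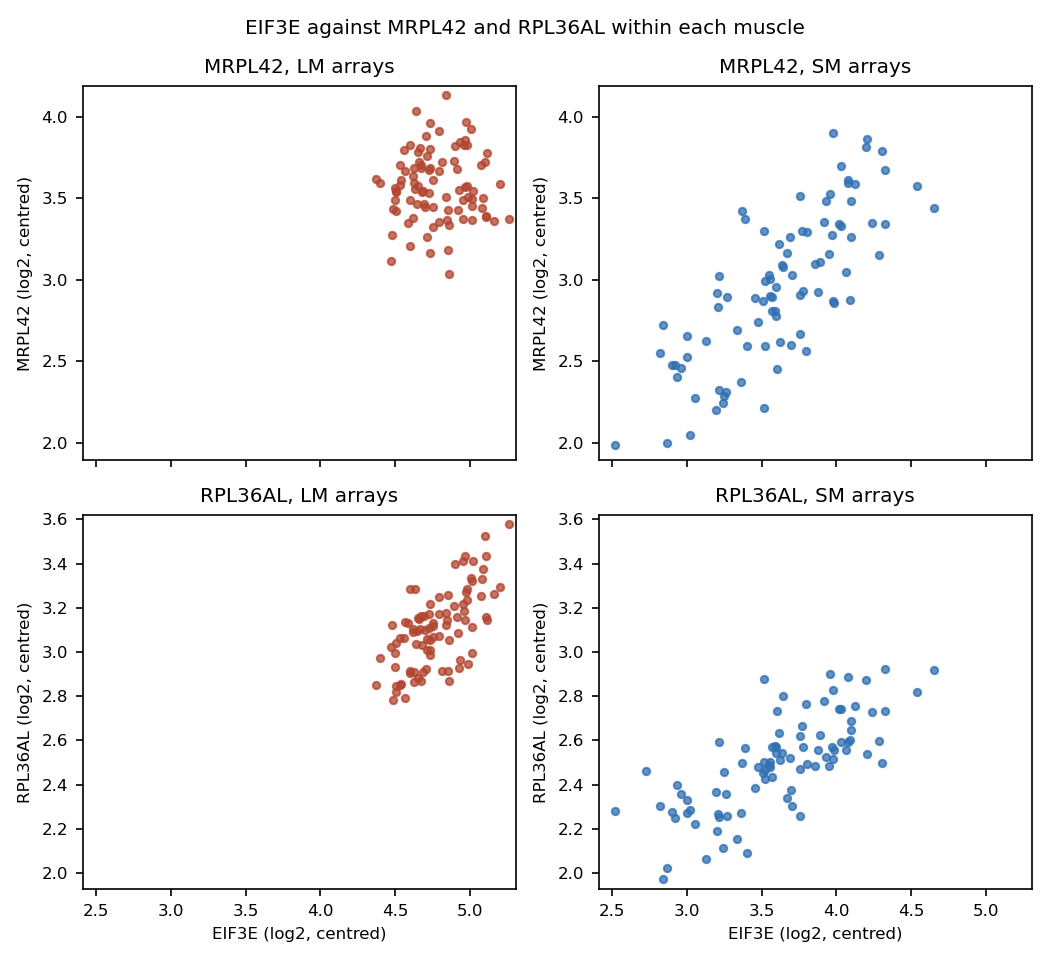
Centred log2 signal of MRPL42 (top) and RPL36AL (bottom) against that of EIF3E (probe BQ599036.1_1286), 1 point for each LM (left) or SM (right) array, with shared axes in a row. MRPL42 followed EIF3E in SM (r = 0.78) and not detectably in LM (r = 0.03), and RPL36AL did so in both (0.74 and 0.66).

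Levels also differed between slides within a muscle, for members as for probes over the whole array. In a limma F test over slides with 3 or more arrays, 38 of the 81 members differed between slides within LM (12 cytosolic, 14 mitochondrial, 12 initiation) and 14 within SM (3, 8 and 3), where 53.6% and 15.0% of all probes tested did. RPL21 stood out in LM with F = 64.7, followed by MRPL37 (13.7), EIF2B1 (10.8) and RPS3 (7.67), and none of these was called in SM.

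LM slides of scan days 1 to 6 held 49 pigs and those of days 7 to 10 the other 41, while 13 of 14 SM slides held pigs of both sets, so that in SM the sets can be compared within slides. The dividing day was chosen after LM values had been seen, and the sizes of the sets equal those of the sire families, which the labels do not give. Comparing the sets within SM with slide in the limma model, 17 of 81 members were called, 11 higher in the set of days 1 to 6 and 6 lower. Of all probes 21.8% were called, 1078 higher and 1322 lower in that set, and the split of the members was not tested. In LM, where set and slides cannot be told apart, 33 members were called, where 39.3% of all probes were. Of 9 members called in both, 8 had the same direction, as did 92.9% of all 1318 probes called in both.

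MRPL37, of the mitochondrial large subunit, was higher in the set of days 1 to 6 in both muscles. LM ran from 1.70 over 2.33 to 2.62 in that set and from 1.50 over 1.78 to 2.30 in the other, and SM from 2.16 over 2.60 to 3.08 and from 1.66 over 2.09 to 2.94. The difference of the sets within SM was 0.47 ± 0.05 (adjusted p = 1.32e-10, limma), and in LM it was 0.53 ± 0.04. EIF2B1 behaved in the same way, with a mean of -1.02 ± 0.27 (SD, n = 49) and -1.74 ± 0.41 (SD, n = 41) in LM and of -1.51 ± 0.34 and -2.12 ± 0.38 in SM, and a difference of the sets within SM of 0.64 ± 0.08 (adjusted p = 4.42e-10, limma). These are the 2 members that correlated between the muscles of labelled pigs, at r = 0.60 for MRPL37 and 0.42 for EIF2B1. With deviations from the slide these values were 0.05 and -0.04, and none of the 81 members or of 10986 probes was called. Further members that differed between the sets within SM were EIF3A (0.30 ± 0.05, adjusted p = 3.21e-05), MRPL9 (0.32 ± 0.06), EIF4G3 (0.28 ± 0.06, and 0.28 in LM) and RPS18 (-0.31 ± 0.06).

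RPL21 was apart between the sets in LM and was not called in SM. LM arrays of days 1 to 6 ran from -2.46 over -1.21 to -0.69 and those of days 7 to 10 from -3.92 over -3.02 to -2.03, so that few arrays overlapped. In SM the sets were at -3.21 ± 0.45 (SD, n = 30) and -3.12 ± 0.61 (SD, n = 24), a difference of -0.11 ± 0.15 within slides (adjusted p = 0.639, limma), and the set by muscle interaction was 1.78 ± 0.17. These SM values lay near background, and the missing dim spots raise both means, so a difference between the sets could be hidden in SM. The missing call and the interaction therefore do not show that the sets differ in LM alone. Within the LM slides of days 1 to 6 the mean ran from -2.40 to -0.92. Within the pigs of days 1 to 6 the difference between the muscles was 1.84 ± 0.11 (SE), and within the pigs of days 7 to 10 it was 0.07 ± 0.15. In the second set 39 LM and 24 SM arrays had a value. Missing dim spots raise that SM mean, so a difference between the muscles could be hidden in this set as well. For EIF2B1 the difference between the muscles was 0.49 ± 0.06 and 0.38 ± 0.09 within the sets, and for MRPL37 it was -0.29 ± 0.04 and -0.34 ± 0.05, and the set by muscle interaction was not called for either (adjusted p = 0.540 and 0.682, limma).

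**Figure D5:**
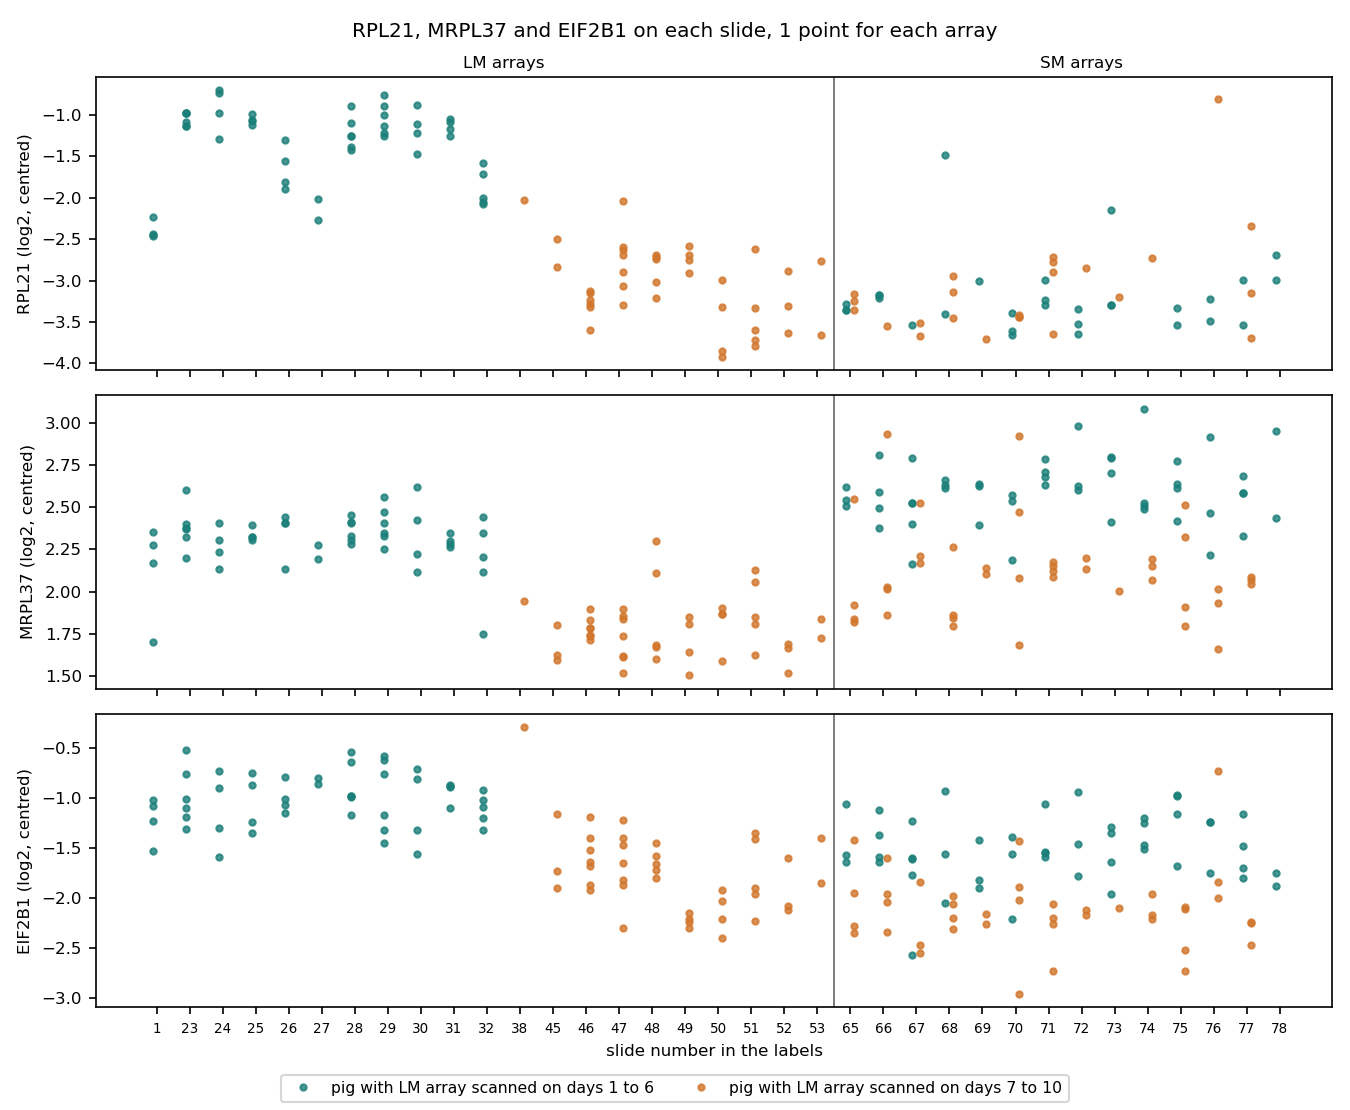
Centred log2 signal of RPL21, MRPL37 and EIF2B1 on each array, by slide number, LM slides left and SM slides right of the line, coloured by the scan days of the pig's LM array. RPL21 is high on most LM slides of days 1 to 6 and low on the later LM slides and, but for single arrays, on SM slides, whereas the colours separate MRPL37 and EIF2B1 on LM slides and, less sharply, within SM slides.

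Other genes of the pathway came from the same lists, of which the SM list was held in part, so that each named probe was called and only its direction is described. Of all probes kept, 35.7% were called higher in LM and 47.7% in SM. The list taken for the mTOR branch, which governs cap-dependent initiation, had 8 of 8 probes higher in LM, among them RPS6KB1 (0.66), the S6 kinase, RPTOR (0.67), the subunit that recruits mTOR substrates, PDCD4 (0.83 and 0.58), an inhibitor of EIF4A, and DDIT4 (0.43), an inhibitor of mTOR. The 8 probes also include RPS6KA3 (0.63) and RPS6KA5 (0.45), relatives of the S6 kinase that lie outside this branch. The activators RPS6KB1 and RPTOR and the inhibitors PDCD4 and DDIT4 were thus on the same side. Of the mitochondrial translation factors 6 of 9 probes were higher in LM, led by the initiation factor MTIF2 (1.92 and 0.82) and the release factor MTRF1L (1.12), and 3 were higher in SM, the elongation factor TUFM (-0.46), the recycling factor MRRF (-0.47) and FARS2 (-0.79). For elongation and termination 3 of 4 were higher in LM, ETF1 (0.54), PAIP2 (0.56) and EEF2K (0.27), and PABPC1 was lower (-0.46). Of 5 probes for cytosolic aminoacyl-tRNA synthetases, LARS and MARS were higher in LM and VARS and both WARS probes in SM. Ribosome assembly had 5 of 8 probes higher in LM, GNL2 (1.85 and 0.81), GNL3 (0.76), BRIX1 (0.48) and UBTF (0.40), and 3 higher in SM, PES1 (-0.81), NOP2 (-0.65) and POLR1C (-0.53).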

How the data were processed

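The arrays hold 60-base pig muscle probes, 1 array for each of 180 samples (90 LM, 90 SM). The deposited scanner files give a processed signal intensity per spot, background-subtracted by Feature Extraction 9.5.1.1 or 9.5.3.1 without scaling from array to array. A second deposited table, of 6903 probes on the natural log scale as the authors centred it, was used as an alternative. The labels and the study's methods name different amounts of RNA and different labelling kits. Every column read belonged to a labelled sample.

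After removal of 546 control spots the log2 of the processed signal was taken. A spot was treated as missing where it was saturated, non-uniform or dim against its background, and a probe was dropped where this held for over 50% of LM or of SM arrays. Each array was centred on its median, and 7460 values over 3 SD from their probe's mean were deleted. Of 15198 probes, 10987 were kept. Missing dim spots raise the mean of a dim group. Probes were named only through the study's lists of probes that differed between the muscles, and their fold changes and p-values, which are the authors' own comparisons, were not used. Sequences are those of the scanner files. A genome was not used here.

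LM and SM were compared with limma 3.58.1 in R 4.3.3 (lmFit and eBayes, muscle as the only term), with Benjamini-Hochberg adjustment over all probes kept and a threshold of 0.05. The study's model had further terms for sex, batches and weight, for which the labels give no values. Spread, slides and pig sets were tested with limma in the same way, and correlations with 100000 permutations, two-sided, where 1e-05 is the smallest p before adjustment. Nothing in the labels says that arrays of a muscle were repeated, and each is taken as 1 pig. The number of arrays limits the precision. Scripts were tested on simulated data.

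The named members were, in each class and direction, the 5 genes with the largest difference, genes with more than 1 probe, paralogue and complex groups (MRPS18, EIF2AK, EIF4A, EIF4G, EIF3, EIF1, RPL7, the stalk and RPSA) and EIF4EBP1, and the members with the most extreme correlation between muscles or difference in spread; other members named were chosen after their values were seen. The members and lists were chosen with earlier results of these data known. The alternatives were other centring, quantile normalization, normexp, other spot and probe filters, the deposited table, pig or slide as a block and the base composition index as a covariate.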

Additional observations from a re-analysis of the deposited data

Results flagged for a closer look

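Of 81 members, 9 differed between the muscles in the difference between pig sets, that is between pigs whose LM arrays were scanned on days 1 to 6 and on days 7 to 10 (set by muscle interaction in limma, adjusted p of 0.05 or less, against 12.2% of all probes kept). The largest was RPL21, whose difference between the sets was higher in LM than in SM by 1.78 on the log2 scale (-1.36 and -3.05 in LM, -3.21 and -3.12 in SM). RPL21 lay near background in SM, where missing dim spots raise the means, so its interaction does not show a difference in LM alone. The set by muscle interaction was 0.39 for EIF3S8, 0.35 for the MRPL49 probe BI185425.1_110, 0.22 for the RPS3 probe AJ647954.1_465 and 0.22 for EIF2A. It was negative for MRPS24 (-0.54), RPL8 (-0.39), EIF3A (-0.27) and the MRPS18C probe CF795753.1_129 (-0.19). EIF3S8 and MRPS24 also lay low, with an adjusted p of 0.0407 and 0.0382 (limma). In SM the sets had values on 24 and 22 arrays for EIF3S8 and on 36 and 36 for MRPS24. Missing dim spots therefore limit these interactions too. For EIF3A the sets were level in LM (-0.38 and -0.41) and apart in SM (-0.67 and -0.96). For RPL8 they were ordered the other way in SM (2.01 and 1.84) than in LM (1.50 and 1.71). Within SM slides the RPL8 difference was 0.16 ± 0.05, but with the base composition index as a covariate it was 0.07 ± 0.04 and was not called. The dividing day was chosen after LM values of RPL21 had been seen, and in LM set and slide cannot be told apart.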

How the results depend on the processing

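Counts of members called by class stayed within 1.5 times under the alternatives run, except that 4 initiation factor probes instead of 2 were called higher in SM with normexp, where the cytosolic ones also turned from 12 higher in LM and 11 in SM to 9 and 13. Of all probes kept, 81.9% were called with normexp and 83.5% without, both directions together. The median difference of the cytosolic ribosomal proteins was 0.0325 with quantile normalization and -0.22 with normexp, and that of the initiation factors 0.27 with normexp. With dim probes kept the cytosolic median was also smaller, by over 1.5 times. With deviations from the slide, no member (0) and none of 10986 probes correlated between the muscles of a labelled pig instead of 2 members, 2 members instead of 5 were wider in LM and 14 instead of 8 in SM, and 20 instead of 12 correlated with EIF3E in LM, where the shares of all probes were 0.364%, 11.3% and 18.1% instead of 5.62%, 8.91% and 10.4%. The causes were not tested. Single probes changed sign as follows: with normexp RPL12 (-0.20), RPS27 (-0.0272), RPSA (-0.24), EIF2AK3 (-0.10), EIF2AK4 CF363044.1_885 (-0.14), EIF3G (-0.0582), EIF3S8 (-0.26), EIF4EBP1 (-0.0492), EIF5 BQ601560.1_763 (-0.12) and MRPS24 (-0.0335), with quantile normalization RPSA (-0.0616) and EIF3S8 (-0.0770), with the base composition index RPL8 (0.26), RPL36 (0.0117), EIF2AK3 (-0.0559) and EIF3S8 (-0.0172), with dim probes kept RPSA (-0.00404), and with outlying values kept EIF3S8 (-0.0650).

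With pig as a replicate block all 81 members kept their call and 9159 of 10987 probes (83.4%) were called against 9169 without, and the block changed no other call of the members except that 7 instead of 8 were wider in SM. Since the labels did not clearly pair single pigs, this block cannot show how true pairing would change the calls. Single arrays were not left out in turn, because each muscle had 90. Members near background had fewer values, as RPS24 (58 SM arrays), RPL21 (54), EIF3S8 (46) and one EIF5 probe (56), and their SM means are raised by the dim spots that are missing.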
